A study of Mus musculus with 16 samples.

Results

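The insulin-like growth factor (IGF) axis was examined in mouse quadriceps through 8 genes: the ligands Igf1 and Igf2, the receptors Igf1r and Igf2r, and the binding proteins Igfbp3, Igfbp4, Igfbp5 and Igfbp7. They were taken by name, through their Ensembl identifiers, from a deposited table of 17370 genes, and all 8 were found there. The study asked how transection of the anterior cruciate ligament of the knee, with or without an inhibitor of the macrophage growth factor receptor CSF1-R, altered the thigh muscle that extends the knee. RNA sequencing covered 16 libraries of skeletal muscle in 4 groups of 4: healthy quadriceps with placebo, injured quadriceps with placebo, healthy quadriceps with inhibitor and injured quadriceps with inhibitor. For 7 days after the transection the animals drank either the inhibitor, at 40 mg/kg, or the placebo, which was 0.5% sucrose. The labels give no compound name, and strain, age and sex are not given in the sources used here. Each library is labelled a biological replicate, and p-values here measure the spread between these libraries.

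The IGF axis is the main growth signal of skeletal muscle. IGF1 and IGF2 bind the receptor encoded by Igf1r, a tyrosine kinase that acts through PI3K and AKT to raise protein synthesis and through FoxO factors to restrain protein breakdown. The product of Igf2r binds IGF2 and carries it to the lysosome without sending a growth signal. Binding proteins hold the ligands outside the cell, where they can lengthen their life, withhold them from the receptor or release them locally after cleavage. In regenerating muscle IGF1 comes in part from macrophages, and IGF2 is made by differentiating myoblasts.

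Library totals were 20.12 to 27.13 M counts (M, mega). Muscle fibre markers (10 of 10 in the table) summed to 127295 to 226062 CPM (counts scaled to a common library size after TMM normalization) across the libraries. Markers of joint lining and cartilage (9 of 9 in the table) stood apart in 4 libraries, at a summed 307 CPM in healthy placebo 4, 293 and 327 CPM in injured placebo 2 and 3 and 199 CPM in healthy inhibitor 1, against 10.55 to 35.8 CPM in the other 12. Prg4 gave most of each of these 4 sums, at 251, 220, 286 and 169 CPM in the same order, against 3.97 to 19.5 CPM in the other 12. Col2a1 was also highest in the 4, at 7.58, 2.44, 2.73 and 1.78 CPM against at most 0.672 CPM elsewhere. Not every marker of the list followed: Cytl1 reached 1.76 CPM in injured placebo but 3.18 CPM in injured inhibitor libraries. Results that rest on these 4 libraries are given with and without them. A healthy and an injured library share a name stem in 8 cases, read here as 8 animals, although the deposited design mentions muscle before and after transection. The names of all 8 healthy libraries end in L and those of all 8 injured libraries in R. If these letters are sides of the body, side and injury cannot be told apart.

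On the GRCm38 genome, annotated with GENCODE M21, the members lie on 6 chromosomes. To show what the starts of these genes look like, the bases before the transcript start are given for both receptors, whose levels varied least, for Igf2 and Igfbp3, whose levels ran in parallel across libraries, and for Igfbp5, the most abundant member. The sequences are those of RefSeq (GRCm38.p6) and read 5′ to 3′ on the strand of the gene. Capitals mark a match on either strand to TATAAA, the core of a TATA box, to CANNTG, an E-box as bound by myogenic factors, or to GGGCGG, a GC box.
Igf1r, chr7:67952157-67952256, plus strand: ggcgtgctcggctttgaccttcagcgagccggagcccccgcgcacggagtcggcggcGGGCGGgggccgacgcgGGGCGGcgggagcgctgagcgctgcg
Igf2r, chr17:12769707-12769806, minus strand: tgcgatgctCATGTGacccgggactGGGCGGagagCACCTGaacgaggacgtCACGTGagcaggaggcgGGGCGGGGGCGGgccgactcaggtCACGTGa
Igf2, the most downstream of 4 starts, chr7:142657497-142657596, minus strand: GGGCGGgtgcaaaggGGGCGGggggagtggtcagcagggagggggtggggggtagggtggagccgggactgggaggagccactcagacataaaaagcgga
Igfbp3, chr11:7213924-7214023, minus strand: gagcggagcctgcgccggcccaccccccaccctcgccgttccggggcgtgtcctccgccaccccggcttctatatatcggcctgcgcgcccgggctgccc
Igfbp5, chr1:72874885-72874965, minus strand: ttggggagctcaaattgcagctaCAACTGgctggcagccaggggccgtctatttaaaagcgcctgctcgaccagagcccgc
The window of Igf1r held 2 GC boxes, that of Igf2r 3 GC boxes and 4 E-box matches, and that of Igf2 2 GC boxes. Igfbp5 held 1 E-box match in 81 bases, and Igfbp3 held none of the 3 motifs in its 100 bases. Of 32851 promoter windows of 100 bases, 24.7% held a GC box, 34.4% an E-box match and 5.56% a TATA box, so a match by itself is common for the first pair of motifs. The other starts of Igf2, and the start of Igf1, whose window overlaps an annotated exon, are not shown.

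Levels between genes were compared per kilobase of exon. The binding proteins led: Igfbp5 averaged 85.3 ± 20.7 CPM per kb and Igfbp7 48.8 ± 13.6 (SD over 16 libraries). Igf2r followed at 11.3 ± 0.767, Igfbp4 at 9.53 ± 4.30 and Igfbp3 at 6.72 ± 1.89 CPM per kb. The ligands were lower, with Igf2 at 4.87 ± 4.04 and Igf1 at 2.16 ± 1.06 CPM per kb, and Igf1r was lowest at 1.47 ± 0.106. Igfbp5 stood above Igfbp7 in 16 of 16 libraries, and the ranges of Igfbp7 and Igf2r did not overlap. The other neighbours in this order had overlapping ranges. Igf2r stood above Igfbp4 in 13 libraries, Igfbp4 above Igfbp3 in 13, Igfbp3 above Igf2 in 14 and Igf1 above Igf1r in 12. In injured quadriceps with placebo the order differed in the middle, with Igfbp4 at 13.1 ± 4.21 and Igf2 at 8.85 ± 7.22 CPM per kb (SD, n = 4), but their ranges overlapped those of the neighbours Igf2r and Igfbp3.

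**Figure D1:**
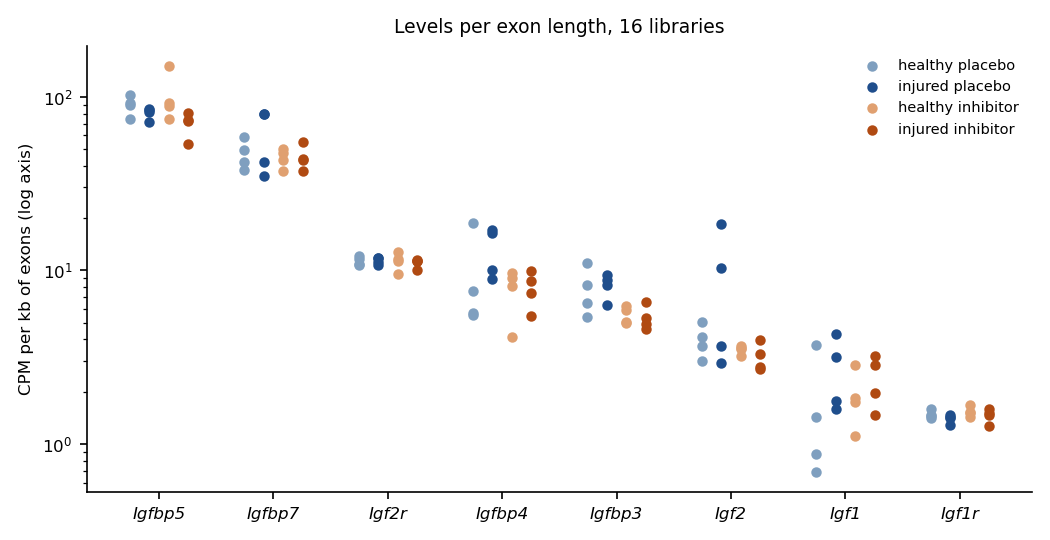
Level of each member per kilobase of exon (CPM per kb, log axis), with 1 point per library and 1 colour per group. Igfbp5 and Igfbp7 sit above the other 6 genes in every library, while Igf1 and Igf1r lie lowest on average and overlap.

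The receptors were the steady members, and Igf2, Igf1 and Igfbp4 varied most over all libraries. Over the 16 libraries the coefficient of variation (SD over mean) was 7.22% for Igf1r and 6.81% for Igf2r, where genes of like level had medians of 12.3% and 11.97%. It was 48.9% for Igf1 and 83.0% for Igf2, against medians of 12.6% and 11.9% for genes of like level. Igfbp4 reached 45.1%, Igfbp3 28.15%, Igfbp7 27.9% and Igfbp5 24.3%. Without the 4 libraries high in joint markers the coefficient of Igf2 was 13.65% and that of Igfbp7 13.2%. Those of Igfbp3 and Igfbp4 were 21.9% and 26.2%, and those of Igf1 and Igfbp5 were 44.7% and 27.65%. Igf2 was then less variable than Igfbp3, Igfbp4 and Igfbp5.

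**Figure D2:**
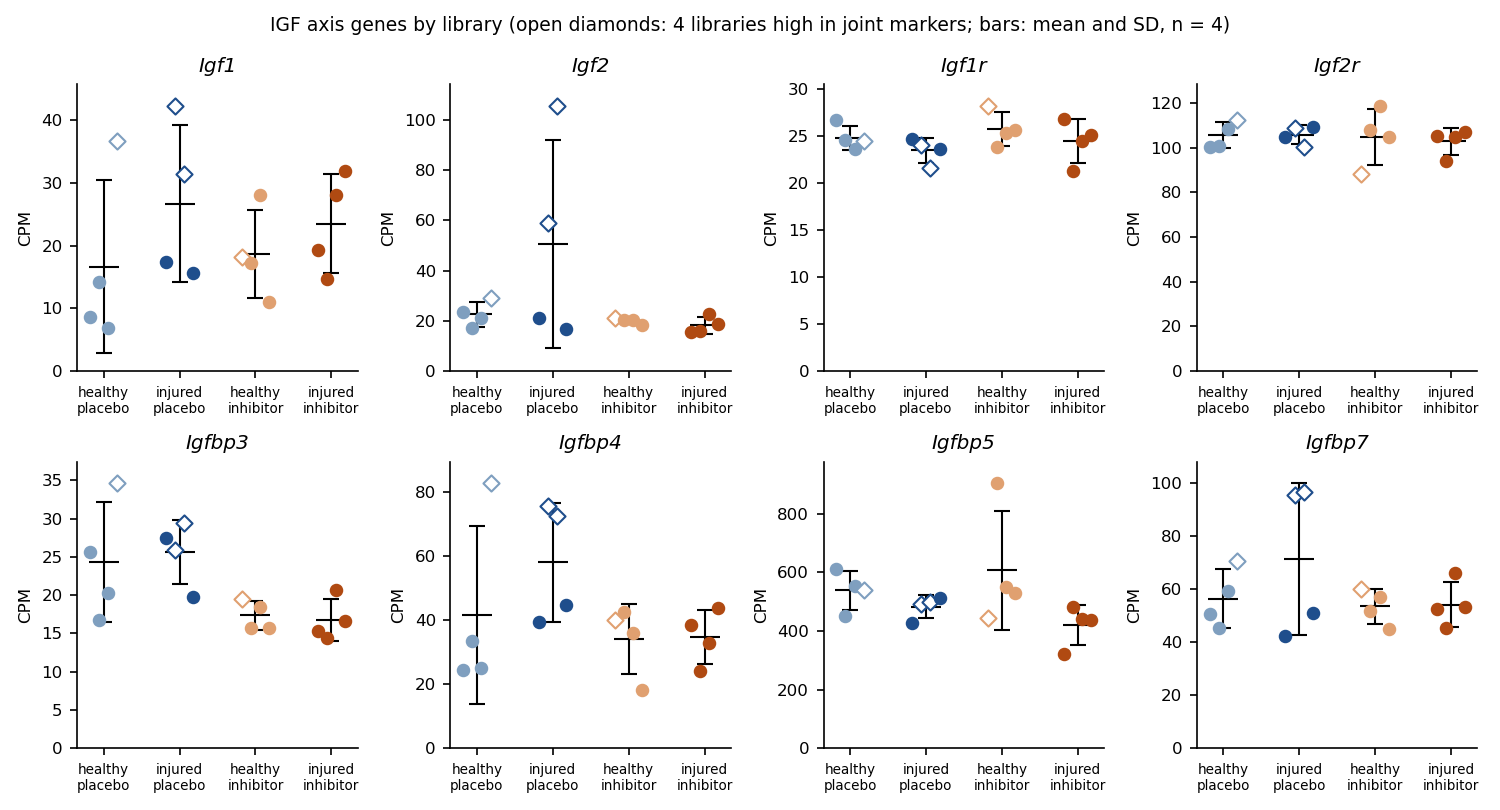
CPM of each member in every library, by group. Bars give the mean and SD of 4 libraries, and open diamonds are the 4 libraries high in joint markers. Igf2 stands at 59.1 and 106 CPM in injured placebo 2 and 3 and between 15.5 and 29.0 CPM elsewhere, while Igf1r and Igf2r vary little.

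Igf1 (ENSMUSG00000020053, chromosome 10, 87858265 to 87937042, plus strand) encodes the growth factor that drives fibre growth and repair. With placebo it was at 8.68, 14.1, 6.82 and 36.8 CPM in healthy quadriceps 1 to 4 and at 17.4, 42.3, 31.4 and 15.65 CPM in injured quadriceps 1 to 4. With inhibitor it was at 18.25, 17.3, 28.1 and 11.01 CPM in healthy and at 19.4, 14.6, 28.1 and 31.98 CPM in injured quadriceps. Injured placebo 2 and healthy placebo 4 were the highest libraries, and the groups overlapped in every comparison. Placebo animals 1, 2 and 3 were higher in the injured limb by 2.01-, 2.99- and 4.60-fold, and animal 4 was at 0.426 of its healthy level. With inhibitor, animal 4 was 2.90-fold higher and animal 1 1.06-fold higher in the injured limb, animal 2 was at 0.844 of its healthy level, and animal 3 had near equal levels of 28.11 and 28.13 CPM. The means with placebo were 16.6 ± 13.8 CPM healthy and 26.7 ± 12.6 CPM injured (SD, n = 4), a log2 difference of 0.69 ± 0.51 (SE, edgeR p 0.198, adjusted p 0.695). With inhibitor the log2 difference between injured and healthy was 0.33 ± 0.51 (edgeR p 0.524). Neither difference exceeded the spread between libraries. The injury difference with placebo was 1.42 without healthy placebo 4 and 0.38 without injured placebo 2. In bulk RNA, fewer cells of a type and less RNA per cell cannot be told apart, here and for the genes below.

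Igf2 (ENSMUSG00000048583, chromosome 7, 142650766 to 142666816, minus strand) encodes the ligand of fetal growth and of myoblast differentiation. In animals on placebo the level was 23.6, 17.1, 20.97 and 29.0 CPM in healthy quadriceps 1 to 4 and at 21.1, 59.1, 106 and 16.8 CPM in injured quadriceps 1 to 4. In animals on inhibitor the level was 21, 20.1, 20.5 and 18.3 CPM in healthy and at 15.5, 15.9, 22.6 and 18.9 CPM in injured quadriceps. Only injured placebo 2 and 3 exceeded 29.0 CPM, and the groups overlapped in every comparison. The log2 difference between injured and healthy was 1.16 ± 0.44 with placebo (SE, edgeR p 0.0204, adjusted p 0.641) and -0.13 ± 0.44 with inhibitor (p 0.771). In injured quadriceps the difference between inhibitor and placebo was -1.47 ± 0.45 (edgeR p 0.00549, adjusted p 0.226). The difference between the 2 injury effects was -1.29 ± 0.62 (edgeR p 0.058, adjusted p 0.998).

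These Igf2 differences rested on injured placebo 2 and 3. Without injured placebo 3 alone the injury difference with placebo was 0.51 and the inhibitor difference in injured quadriceps -0.81. Without the 4 libraries high in joint markers, the injury difference with placebo was -0.13 and the inhibitor difference in injured quadriceps -0.051 (edgeR p 0.766). With all libraries, limma-voom gave -1.72 for the inhibitor in injured quadriceps (adjusted p 0.0292) and DESeq2 gave -1.47 (adjusted p 0.0497). Both passed the threshold of 0.05 that edgeR did not reach. In that comparison limma-voom called 1229 of the 15411 tested genes, and the DESeq2 count is given below. Injured placebo 2 and 3 were also highest in the summed markers of satellite cells and new fibres (8 of 8 in the table). Their sums were 283 and 419 CPM against 32.7 to 61.75 CPM in the other 14 libraries. Myh3, the embryonic myosin of new fibres, was at 145 and 252 CPM there and between 1.11 and 14.1 CPM elsewhere. Injured placebo 1 and 4 were at 12.7 and 3.06 CPM of Myh3. Myh3 was the largest part of the 2 high sums. Myog was also highest in those 2 libraries, at 44.6 and 33.7 CPM against 2.94 to 7.27 CPM elsewhere. Not every marker of the list followed: Myod1 ranged from 22.2 to 34.85 CPM in injured placebo and from 15.7 to 41.5 CPM in healthy placebo libraries. None of these 8 markers was at 0 throughout a group, and their part in the Igf2 values was not tested. Igf2 shares 3596 exon bases on its strand with the predicted gene Gm49394, which was at 0 to 0.933 CPM. Counts of both genes summed gave 1.16 for injury with placebo and -1.46 for the inhibitor in injured quadriceps.

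**Figure D3:**
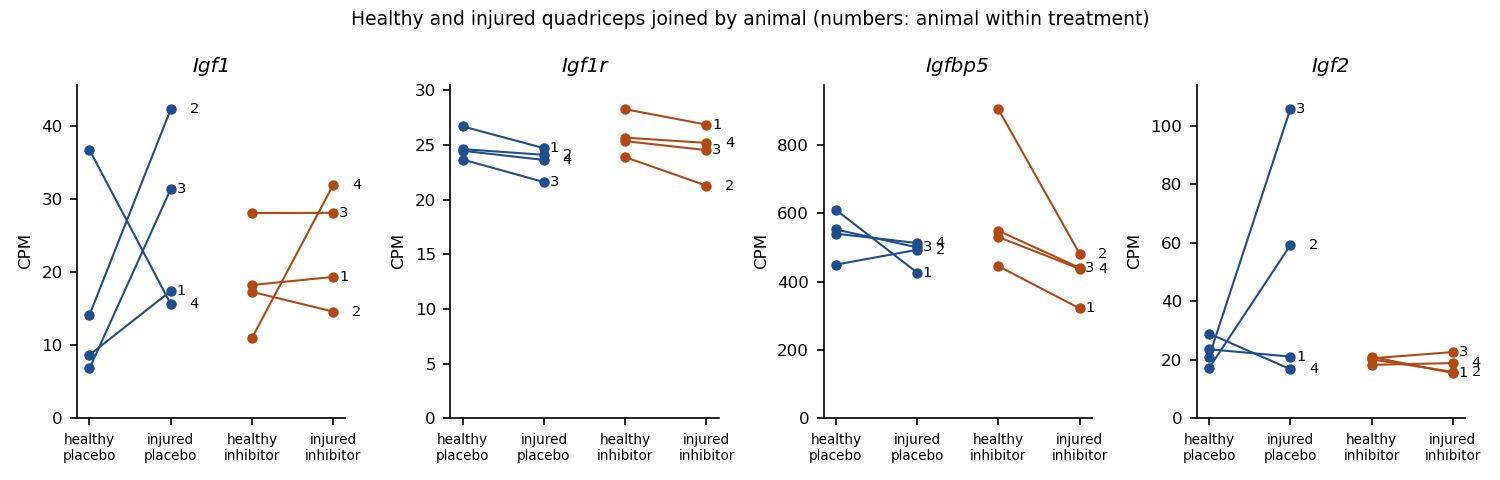
CPM of Igf1, Igf1r, Igfbp5 and Igf2 in healthy and injured quadriceps, with a line joining the 2 libraries of an animal and its number within the treatment at the right. Igf1r slopes down in all 8 animals at this scaling and Igfbp5 in 7, whereas Igf1 and Igf2 slope both ways.

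Igf1r (ENSMUSG00000005533, chromosome 7, 67952827 to 68233668, plus strand) encodes the signalling receptor of the axis. Placebo libraries held it at 26.7, 24.6, 23.7 and 24.5 CPM in healthy quadriceps 1 to 4 and at 24.7, 24.1, 21.6 and 23.6 CPM in injured quadriceps 1 to 4. Inhibitor libraries held it at 28.3, 23.9, 25.35 and 25.7 CPM in healthy and at 26.9, 21.3, 24.5 and 25.2 CPM in injured quadriceps. The groups overlapped, but within an animal the injured library was the lower one in 8 of 8, at 0.891 to 0.981 of the healthy level, with TMM or DESeq2 size factors and in 4 of 8 with plain library totals. Of the 15411 tested genes, 0.292% were lower in the injured limb of every animal. The difference averaged over both treatments was -0.078 ± 0.062 on the log2 scale (SE, 95% interval -0.21 to 0.053, edgeR p 0.226, adjusted p 0.824). With the animal as a block it was -0.080 (edgeR p 0.181).

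Igf2r (ENSMUSG00000023830, chromosome 17, 12682406 to 12769664, minus strand) encodes the receptor that clears IGF2. It ranged from 100.5 to 113 CPM in healthy placebo, 100.3 to 109 in injured placebo, 88.2 to 119 in healthy inhibitor and 94.1 to 107 in injured inhibitor libraries. The injured library was higher in 4 of 8 animals, and in 5 of 8 with plain library totals. Log2 differences between injured and healthy were 0.0029 ± 0.089 with placebo and -0.028 ± 0.089 with inhibitor (SE). Their 95% intervals were -0.18 to 0.19 and -0.22 to 0.16, and they hold for TMM scaling only. Plain library totals shifted all genes by 0.14 with placebo and 0.02 with inhibitor on the log2 scale, relative to TMM.

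Igfbp3 (ENSMUSG00000020427, chromosome 11, 7206086 to 7213923, minus strand) encodes the main carrier of IGFs in blood. With placebo its level was 25.65, 16.8, 20.3 and 34.7 CPM in healthy quadriceps 1 to 4 and at 27.5, 25.85, 29.4 and 19.7 CPM in injured quadriceps 1 to 4. With inhibitor its level was 19.5, 15.7, 18.5 and 15.8 CPM in healthy and at 15.3, 14.4, 20.65 and 16.6 CPM in injured quadriceps. The inhibitor libraries lay at the lower end in both limbs, and 20.65 CPM, their highest value, was above the lowest placebo library of either limb. The inhibitor difference was -0.61 ± 0.19 on the log2 scale in injured quadriceps (SE, edgeR p 0.0052, adjusted p 0.224) and -0.49 ± 0.19 in healthy quadriceps (p 0.0203, adjusted p 0.9996). Neither passed the adjusted threshold with edgeR, while limma-voom gave -0.69 in injured quadriceps (adjusted p 0.0323). In injured quadriceps limma-voom called 1229 of the 15411 tested genes. Without the 4 libraries high in joint markers the differences were -0.49 (p 0.0173, adjusted p 0.741) and -0.33 (p 0.0796), in edgeR fits. Without healthy placebo 4 alone the difference in healthy quadriceps was -0.27. Injury moved Igfbp3 by less than the spread between libraries, at 0.074 ± 0.19 with placebo and -0.050 ± 0.19 with inhibitor.

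Igfbp4 (ENSMUSG00000017493, chromosome 11, 99041244 to 99054392, plus strand) encodes an inhibitor of IGF action that the protease PAPP-A cleaves. In the placebo groups it stood at 24.5, 33.6, 25.05 and 82.7 CPM in healthy quadriceps 1 to 4 and at 39.5, 75.5, 72.45 and 44.6 CPM in injured quadriceps 1 to 4. In the inhibitor groups it stood at 39.8, 42.5, 35.9 and 18.2 CPM in healthy and at 38.3, 24.0, 32.8 and 43.7 CPM in injured quadriceps. The 3 highest values were in healthy placebo 4 and in injured placebo 2 and 3, and the groups overlapped. These 3 libraries also had the highest sums of 12 macrophage markers (all in the table), at 448, 858 and 778 CPM against 25.65 to 131.5 CPM in the other 13. No macrophage marker was at 0 throughout a group, and the part of these cells in the Igfbp4 values was not tested. The log2 difference of the inhibitor in injured quadriceps was -0.74 ± 0.40 (SE, edgeR p 0.0839, adjusted p 0.401), and -0.27 without the 4 libraries high in joint markers. Injury with placebo gave 0.49 ± 0.39 (edgeR p 0.24), which was 1.05 without healthy placebo 4 and 0.30 without healthy placebo 1.

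Igfbp5 (ENSMUSG00000026185, chromosome 1, 72857932 to 72874884, minus strand) encodes a matrix-bound IGF carrier that muscle cells make as they differentiate. Under placebo it was found at 610.3, 449.8, 553 and 540.5 CPM in healthy quadriceps 1 to 4 and at 427, 493, 500.5 and 513 CPM in injured quadriceps 1 to 4. Under inhibitor it was found at 445.5, 905, 549 and 531 CPM in healthy and at 322, 482, 440.5 and 437.5 CPM in injured quadriceps. Healthy inhibitor 2 was the highest library and injured inhibitor 1 the lowest, and the groups overlapped. The injured library was the lower one in 7 of 8 animals, 4 with inhibitor and 3 with placebo, and in 6 of 8 with plain library totals. With inhibitor, the injured limb of animals 1 to 4 was at 0.722, 0.5325, 0.802 and 0.8245 of the healthy limb. Of all tested genes, 6.66% were lower in the injured limb of every inhibitor animal. The log2 difference between injured and healthy was -0.53 ± 0.18 with inhibitor (SE, edgeR p 0.00987, adjusted p 0.9999) and -0.16 ± 0.18 with placebo (p 0.405). These effects did not differ from each other beyond the spread (-0.38 ± 0.26, edgeR p 0.163). Averaged over both treatments the injury difference was -0.34 ± 0.13 (edgeR p 0.0165, adjusted p 0.819). The summed muscle fibre markers had lower medians in injured than in healthy quadriceps, with overlapping ranges. The medians were 140338 against 180921 CPM with placebo and 157511 against 187542 CPM with inhibitor. With inhibitor, Myh1 and Myh2 of this list went the other way. Their means were 8241 and 4145 CPM in injured and 5827 and 2637 CPM in healthy quadriceps, while the other fibre markers had lower means in injured quadriceps. Igfbp5 and the summed fibre markers had r of 0.55 (rho 0.67), and 0.60 over the 12 libraries low in joint markers. The part of the fibre markers in the Igfbp5 values was not tested.

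Igfbp5 was less tied to the 4 libraries high in joint markers. Without them the injury difference was -0.66 with inhibitor and -0.43 averaged over both treatments (edgeR p 0.00425 and 0.0135). Healthy inhibitor 2 weighed more: without it the injury difference was -0.27 with inhibitor and -0.22 averaged over both treatments, and the difference of the injury effects was -0.12. With the animal as a block it was -0.49 (edgeR p 0.00439) with inhibitor and -0.32 (p 0.00703) averaged, again short of the adjusted threshold.

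Igfbp7 (ENSMUSG00000036256, chromosome 5, 77349240 to 77408041, minus strand) encodes a matrix protein of vessel walls that binds IGFs weakly. With placebo the gene was at 50.6, 45.5, 59.25 and 70.7 CPM in healthy quadriceps 1 to 4 and at 42.45, 95.6, 96.6 and 51.2 CPM in injured quadriceps 1 to 4. With inhibitor the gene was at 60.15, 51.9, 57.2 and 44.9 CPM in healthy and at 52.5, 45.25, 66.1 and 53.2 CPM in injured quadriceps. Injured placebo 2 and 3 stood above the other 14 libraries, and the groups overlapped. The log2 difference of injury with placebo was 0.34 ± 0.23 (SE, edgeR p 0.17) and that of the inhibitor in injured quadriceps was -0.40 ± 0.23 (p 0.112). Both turned direction without the 4 libraries high in joint markers, at -0.15 and 0.22. Markers of endothelial cells, which line vessels, summed to 212 to 322 CPM in injured placebo libraries and 251 to 321 CPM in healthy placebo libraries. With inhibitor these sums were 263 to 353 CPM in healthy and 287 to 305 CPM in injured libraries. The lowest sums, 220 and 212 CPM, were those of injured placebo 2 and 3. Igfbp7 and the endothelial sums had r of -0.74 (rho -0.45), and 0.057 over the 12 libraries low in joint markers. With markers of pericytes and smooth muscle (8 of 8 in the table) Igfbp7 had -0.88 (rho -0.74), and -0.45 over those 12. All 8 endothelial markers were in the table and none was at 0 throughout a group. The part of both marker lists in the Igfbp7 values was not tested. Igfbp7 shares 85 exon bases with Polr2b on the other strand, and whether counting used the strand is not given in the sources used here. Polr2b was at 34.5 to 49.8 CPM.

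**Figure D4:**
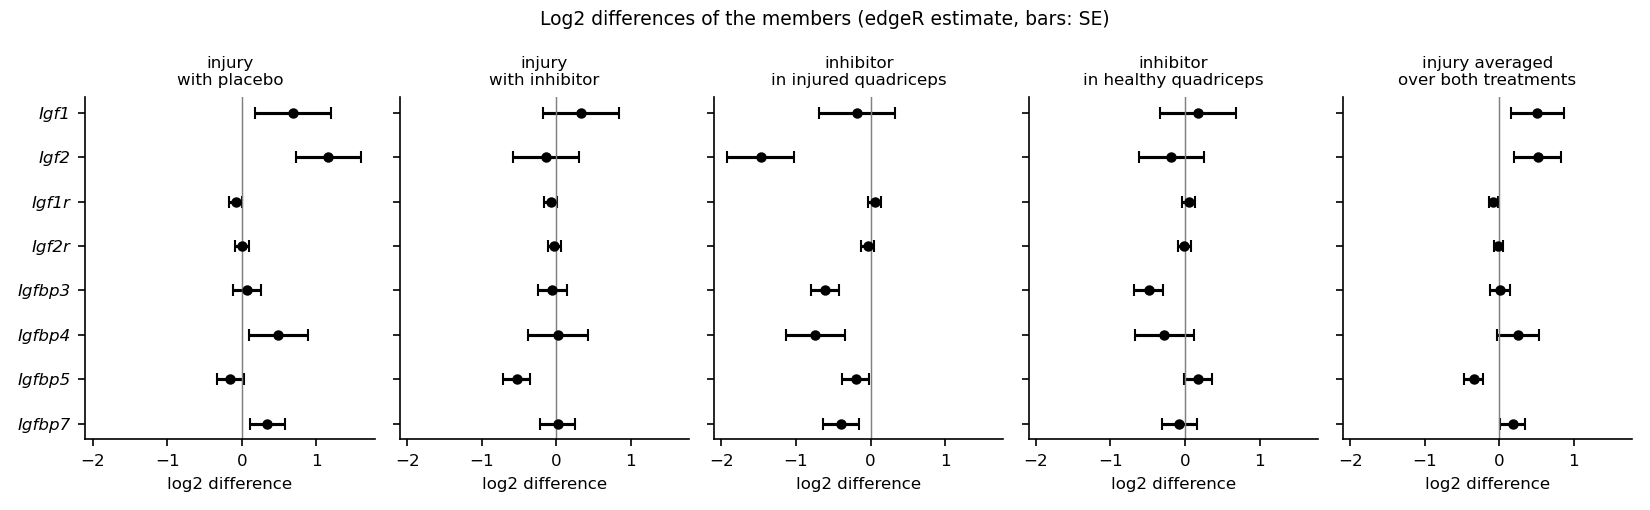
Log2 difference of each member in 5 comparisons, as the edgeR estimate with its SE. Igf2 and Igfbp3 lie farthest below 0 relative to their SE for the inhibitor in injured quadriceps, Igfbp5 for injury with inhibitor, and both receptors stay near 0 throughout.

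Injury with placebo asks what the transection did to muscle in animals without the drug. Log2 differences were positive for 6 of 8 members, led by Igf2 and Igf1, and for 7870 of the 15411 tested genes. The medians were 0.21 for the members and 0.0067 over all tested genes. Among the 6, Igf2r was at 0.0029 ± 0.089 and Igfbp3 at 0.074 ± 0.19 (SE). Without the 4 libraries high in joint markers Igf2 and Igfbp7 turned negative. With edgeR 0 of 8 members had an adjusted p under 0.05, as had 0% of all tested genes, and 1 of 8, Igf2, had an unadjusted p under 0.05, as had 7.24% of all tested genes. DESeq2 called 2 genes, limma-voom 0, and none of them was a member. The groups overlapped for 8 of 8 members, and they did not overlap for 1.55% of all genes. Beyond the members, 45 genes of the pathway were listed, of which 41 were in the table and 39 were tested. Of these, 16 had positive and 23 negative differences, with a median of -0.078, and 1 in each direction had an unadjusted p under 0.05. Akt1, the kinase downstream of the receptor, was at 47.35 ± 5.76 CPM healthy and 56.4 ± 8.57 CPM injured (SD, n = 4), a log2 difference of 0.25 ± 0.12 (edgeR p 0.0456, adjusted p 0.641). Stat5b, which carries the growth hormone signal to Igf1, was at 353 ± 39.1 and 281 ± 68.3 CPM, a difference of -0.33 ± 0.15 (edgeR p 0.0414). Grb10, an adaptor that dampens insulin and IGF receptors, gave 0.29 ± 0.15 (p 0.0719).

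Injury with inhibitor asks the same in treated animals. Positive differences were found for 3 of 8 members and negative ones for 5, against 7862 and 7549 of all tested genes. The medians were -0.039 for the members and 0.0034 over all genes. With edgeR 0 of 8 members and 0% of all genes had an adjusted p under 0.05, and 1 of 8, Igfbp5, had an unadjusted p under 0.05, against 1.31% of all genes. DESeq2 called 1 gene, which was no member, and limma-voom 0. Groups without overlap made up 0 of 8 members and 2.25% of all genes. Of the 39 pathway genes 16 had positive and 23 negative differences, and 1 had an unadjusted p under 0.05. That gene was Grb14, a dampening adaptor like Grb10, at 12.7 ± 2.09 CPM healthy and 17.9 ± 4.49 CPM injured (SD, n = 4), a log2 difference of 0.49 ± 0.22 (edgeR p 0.0364, adjusted p 0.9999). Stat5b gave -0.29 ± 0.15 (p 0.0641). H19, the imprinted RNA next to Igf2, gave 0.63 ± 0.37 (p 0.11). Injury averaged over both treatments gave 0 of 8 members with an adjusted p under 0.05 against 0% of all genes, and 1 of 8, Igfbp5, with an unadjusted p under 0.05 against 4.91%. Stat5b was lower in that average by -0.31 ± 0.11 (edgeR p 0.00883, adjusted p 0.819), with Tsc1 and Tsc2, brakes of mTOR, at -0.18 ± 0.089 and -0.16 ± 0.083.

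The inhibitor in injured quadriceps asks what the drug did after injury. Log2 differences were negative for 7 of 8 members, Igf1r being the exception at 0.058 ± 0.088, and for 8177 of all tested genes. The medians were -0.30 for the members and -0.02 over all genes. With edgeR 0 of 8 members and 0% of all genes had an adjusted p under 0.05, and 2 of 8, Igf2 and Igfbp3, had an unadjusted p under 0.05, against 14.9% of all genes. Of the 15411 tested genes, DESeq2 called 256, with Igf2 among them, and limma-voom 1229, with Igf2 and Igfbp3. Groups without overlap made up 0 of 8 members and 5.64% of all genes. Without the 4 libraries high in joint markers Igf1, at 0.51, and Igfbp7, at 0.22, turned positive. Of the 39 pathway genes 22 had positive and 17 negative differences, with a median of 0.03, and 5 in each direction had an unadjusted p under 0.05. Grb10 was at 88.4 ± 15.7 CPM with placebo and 63.9 ± 5.06 CPM with inhibitor (SD, n = 4), a log2 difference of -0.47 ± 0.15 (edgeR p 0.00633, adjusted p 0.227). Rptor, a subunit of the mTOR complex, gave 0.24 ± 0.08 (p 0.00793) and Pik3ca, the catalytic subunit of PI3K, 0.32 ± 0.11 (p 0.012).

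The inhibitor in healthy quadriceps asks what the drug did in the healthy limb. By the reading of name stems used here, that limb belonged to an animal injured on the other limb. No group is labelled as animals without transection, so the drug without injury was not measured. Of the members 3 had positive and 5 negative differences, against 7083 and 8328 of all tested genes. The medians were -0.044 for the members and -0.017 over all genes. With edgeR 0 of 8 members and 0% of all genes had an adjusted p under 0.05, and 1 of 8, Igfbp3, had an unadjusted p under 0.05, against 3.34% of all genes. DESeq2 called 11 genes, none of them a member, and limma-voom 0. Groups without overlap made up 0 of 8 members and 2.55% of all genes. Without the 4 libraries high in joint markers the Igf1 difference was 0.93 (edgeR p 0.0418, adjusted p 0.9999), against 0.17 ± 0.51 with all libraries. Igf2bp2, which binds Igf2 RNA, was at 1.75 ± 0.545 CPM with placebo and 5.18 ± 2.35 CPM with inhibitor (SD, n = 4), a log2 difference of 1.56 ± 0.40 (edgeR p 0.00128, adjusted p 0.929). Stc1, an inhibitor of the protease PAPP-A, gave -1.67 ± 0.52 (edgeR p 0.00551, adjusted p 0.9996) at 0.863 ± 0.375 and 0.267 ± 0.103 CPM. Its healthy inhibitor libraries, at 0.153 to 0.382 CPM, lay near the 0.115 to 0.159 CPM that 3 counts give there. Irs1, the docking protein of the receptors, gave 0.46 ± 0.20 (edgeR p 0.0381).

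The difference of the injury effects asks whether injury acted otherwise under the drug. It was negative for 7 of 8 members and for 7783 of the 15411 tested genes, with medians of -0.34 and -0.0032. Without the 4 libraries high in joint markers Igf2 and Igfbp7 turned positive. With edgeR 0 of 8 members had an adjusted or an unadjusted p under 0.05, against 0% and 2.74% of all genes. DESeq2 and limma-voom called 0 genes. The pathway genes with the smallest p were Grb14 at 0.64 ± 0.31 (edgeR p 0.0516), Grb10 at -0.43 ± 0.21 (p 0.0611) and Pappa at -1.63 ± 0.86 (p 0.0749), each with an adjusted p of 0.998. The 95% interval of this difference was -2.64 to 0.051 for Igf2, -1.90 to 1.19 for Igf1 and -0.92 to 0.17 for Igfbp5. Each group enters 2 of the 4 comparisons between groups, so the signs of one member in comparisons that share libraries are not separate evidence. With plain library totals the median of all genes shifted by 0.14 for injury with placebo and by -0.13 for the inhibitor in injured quadriceps, relative to TMM.

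Of the other binding proteins, Igfbp6 was tested and stood at 36.7 ± 25.0, 55.9 ± 30.3, 45.8 ± 16.2 and 44.0 ± 6.79 CPM in healthy placebo, injured placebo, healthy inhibitor and injured inhibitor libraries (SD, n = 4). Igfals, which encodes the stabilising subunit of the blood complex, averaged 4.95 to 6.17 CPM in the 4 groups. Igfbp2 was at 0 to 1.083 CPM, too low to be tested. Pappa, the protease that cleaves IGFBP4, averaged 0.558 ± 0.641, 1.15 ± 0.105, 0.686 ± 0.354 and 0.455 ± 0.135 CPM in healthy placebo, injured placebo, healthy inhibitor and injured inhibitor libraries.

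Across the 16 libraries, which come from 8 animals and share the 4 libraries high in joint markers, the genes most like each member were named by Pearson's r of log2 CPM among 10764 genes. For Igf1 these were Clmp, a junction protein, Fzd1, a Wnt receptor, and Sod3, an extracellular antioxidant enzyme, with r of 0.93, 0.92 and 0.92, and 0.92, 0.86 and 0.92 over the other 12 libraries. For Igf2 they were Rnh1, Myh8, the perinatal myosin, and Rps4x, with r of 0.96, 0.96 and 0.93, which dropped to 0.50, 0.26 and 0.29 over the other 12 libraries. Without injured placebo 2 and 3 alone, where Igf2 lay farthest from its median, they were 0.67, 0.59 and 0.61. The likeness of Igf2 to these genes thus fell without these 2 libraries and further without the 4. That of Igf1 held without the 4. For Igfbp4 they were Dsel, Ccdc80 and Apoe, the lipid carrier, at 0.97, 0.97 and 0.96, and 0.92, 0.91 and 0.93 over the other 12. For Igfbp7 they were Ppp1r18, Lgals1, which encodes a galectin, and Sept9, at 0.96, 0.95 and 0.95.

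Igfbp5 was most like Ctif, Fam20c, a kinase of secreted proteins, and Cpeb1, at 0.87, 0.81 and 0.80, and at 0.87, 0.88 and 0.84 over the other 12 libraries. Igfbp3 was most like Ppfibp1, Bmf, which promotes apoptosis, and Rsad2, an interferon-induced gene, at 0.89, 0.89 and 0.86. Both receptors had weaker best matches: Arid5b, Washc5 and Fkbp5, a gene of the glucocorticoid response, for Igf1r at 0.82, 0.75 and 0.74, and Sufu, Arid1a and Adam9 for Igf2r at 0.78, 0.75 and 0.71. Between members, Igf1 and Igfbp4 had r of 0.80 (Spearman's rho 0.75), and 0.65 over the other 12 libraries. Igf2 and Igfbp3 had r of 0.67 (rho 0.87) and 0.72 over the other 12 libraries, whereas Igf2 and Igfbp7 had 0.88 (rho 0.63) and 0.41. These values describe the libraries and carry no test.

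Igf1 and Igfbp4 ran with markers of more than 1 other cell type. With the summed macrophage markers Igf1 had r of 0.76 (rho 0.73), and 0.62 over the other 12 libraries. With markers of fibro-adipogenic progenitors, the connective tissue cells of muscle (10 of 10 in the table), it had 0.69 (rho 0.51), and 0.69 over the other 12. Igfbp4 had 0.89 (rho 0.74) with macrophage markers and 0.73 (rho 0.79) with fibro-adipogenic markers, and 0.665 and 0.80 over the other 12 libraries. With adipocyte markers (4 of 4 in the table) Igfbp4 had 0.051 (rho 0.21), and 0.80 over the other 12. Igf2 and Igfbp7 had r of 0.80 (rho 0.49) and 0.81 (rho 0.56) with macrophage markers, which dropped to -0.20 and 0.0064 over the other 12 libraries. Fibro-adipogenic markers summed to 609 to 1471 CPM in healthy placebo, 1210.5 to 1613 in injured placebo, 959 to 1440 in healthy inhibitor and 868 to 1297.5 in injured inhibitor libraries, and none was at 0 throughout a group. The part of these cell types in the levels of the members was not tested.

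**Figure D5:**
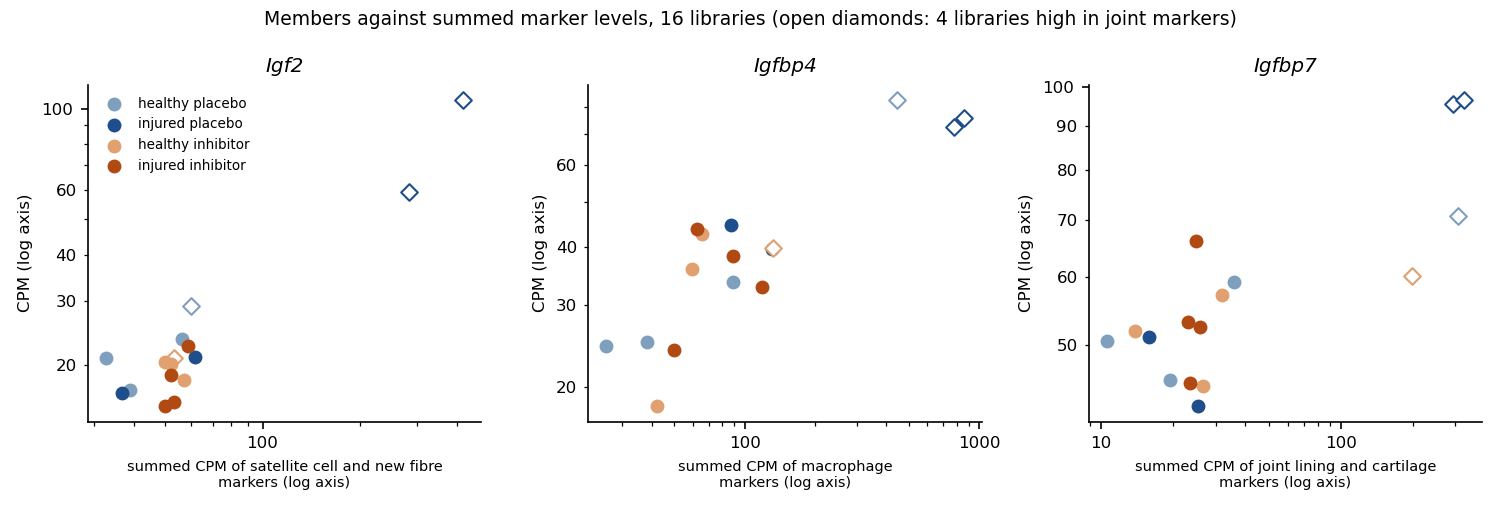
CPM of Igf2, Igfbp4 and Igfbp7 against the summed CPM of a marker list in 16 libraries (both axes log). Open diamonds are the 4 libraries high in joint markers. Igf2 is high in the 2 libraries with 283 and 419 CPM of satellite cell and new fibre markers, and Igfbp4 in the 3 libraries with 448 CPM or more of macrophage markers.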

How the data were processed

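Total RNA of 16 quadriceps libraries was analysed in 4 groups taken from the sample titles. The table the authors deposited gives un-normalized expected counts for Ensembl genes, of which 33.8% were not whole. The build was GRCm38 (mm10) and the tools included Partek, STAR and DESeq2, per the submitters' processing notes, which do not say what each tool did. The smallest maximum of a gene was 10 counts. Counts were rounded. Symbols and coordinates came from GENCODE M21 (17338 of 17370 genes had a symbol), and exon lengths for CPM per kb from the union of its exons. A floor of 3 counts corresponds to 0.109 to 0.159 CPM, for counting error only.

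The members and lists were chosen with earlier results of these data known. EdgeR 4.0.16 in R 4.3.3 (filterByExpr with a minimum count of 10, TMM, robust quasi-likelihood) fitted 4 group means to all 16 libraries, with 12 residual degrees of freedom. It tested 15411 genes in 6 two-sided comparisons, with Benjamini-Hochberg adjustment over all of them at 0.05. The procedure was tested on simulated data. Every member is named, with the 3 pathway genes of smallest p in each comparison and the 3 genes most like each member. Igfbp6, Igfals, Igfbp2, Polr2b and Gm49394 are named outside this rule, after their values were seen. So are the single markers Prg4, Col2a1, Cytl1, Myh3, Myog, Myod1, Myh1 and Myh2.

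Alternatives were DESeq2 size factors, no filter, limma-voom with quality weights (limma 3.58.1), DESeq2 1.42.0, only the groups compared, a block for the animal or the replicate number, each library left out in turn, and plain library totals for levels. A fit with Igf2 and Gm49394 summed and a fit that leaves out the 4 libraries high in joint markers were chosen after seeing the data. Animals were joined by the shared stem of library names. The deviations of the 2 libraries of an animal from their group means correlated at 0.23, -0.04, -0.01 and -0.10 for inhibitor animals 1 to 4 and at 0.47, -0.18, -0.11 and -0.53 for placebo animals 1 to 4. Figures were drawn with matplotlib 3.10.9.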

Additional observations from a re-analysis of the deposited data

Results flagged for a closer look

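Igfbp4 stood at 82.7 CPM in healthy placebo 4, far from the 24.5 to 33.6 CPM of the other 3 libraries of its group. The gap exceeded Dixon's 95% critical value for 4 samples. In all, 32 groups of 4 libraries were checked, of which chance alone would set apart about 1 in 20. That library also held 307 CPM of joint lining and cartilage markers and 448 CPM of macrophage markers, the highest sums of its group.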

How the results depend on the processing

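Over 6 comparisons and 8 members, 838 alternative values were computed, of which 771 kept direction and side of the threshold, 64 turned direction and 3 passed the threshold where edgeR had not. Of the 48 member results 26 turned direction in at least 1 alternative. The 3 that passed were Igf2 and Igfbp3 for the inhibitor in injured quadriceps, given above.

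DESeq2 called 2, 1, 256 and 11 genes for injury with placebo, injury with inhibitor, and the inhibitor in injured and healthy quadriceps, where edgeR called 0. Limma-voom called 1229 for the inhibitor in injured quadriceps. Leaving out each library in turn gave 0 to 3 genes for injury with placebo and 0 to 39 for the inhibitor in injured quadriceps, both highest without injured placebo 4, and 0 to 1 for the inhibitor in healthy quadriceps, highest without healthy placebo 1. The cause was not tested.

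With the animal as a block no member was called, and Igfbp5 gave -0.49 for injury with inhibitor. With the replicate number as a block, which nothing in the labels ties to a shared source across treatments, 1 gene was called for the inhibitor in injured quadriceps, where Igf2 gave -1.33 and Igfbp3 -0.62. The block changed no call of a member.

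For injury with placebo Igf2r gave -0.0021 with DESeq2 size factors, -0.0077 without a filter, -0.0104 with limma-voom and -0.0020 with DESeq2. For injury with inhibitor limma-voom gave -0.0092 for Igfbp4 and -0.0117 for Igfbp7. Without the 4 libraries high in joint markers, directions turned for Igf2 (-0.13) and Igfbp7 (-0.15) in injury with placebo, Igfbp3 (0.0074) in injury with inhibitor, and Igf1 (0.51) and Igfbp7 (0.22) for the inhibitor in injured quadriceps. They also turned for Igf1r (-0.0033), Igf2r (0.096) and Igfbp4 (0.22) for the inhibitor in healthy quadriceps, Igf2 (0.017) and Igfbp7 (0.23) in the difference of injury effects, and Igf2 (-0.12) and Igfbp7 (-0.038) in the averaged injury difference. That fit leaves 2 libraries in the injured placebo group. The cause of these turns was not tested.

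Leaving out 1 library in turn gave ranges across 0 for these results. For injury with placebo they were -0.022 to 0.024 for Igf2r and -0.0695 to 0.28 for Igfbp3. For injury with inhibitor they were -0.10 to 0.037 for Igf2r, -0.17 to 0.014 for Igfbp3, -0.18 to 0.16 for Igfbp4 and -0.0899 to 0.096 for Igfbp7. For the inhibitor in injured quadriceps they were -0.36 to 0.14 for Igf1 and -0.058 to 0.0031 for Igf2r. For the inhibitor in healthy quadriceps they were -0.092 to 0.92 for Igf1, -0.074 to 0.066 for Igf2r, -0.46 to 0.30 for Igfbp4, -0.082 to 0.30 for Igfbp5 and -0.17 to 0.049 for Igfbp7. For the difference of injury effects they were -0.042 to 0.068 for Igf1r, -0.10 to 0.036 for Igf2r and -0.33 to 0.019 for Igfbp3, and for the averaged injury difference -0.051 to 0.019 for Igf2r and -0.0602 to 0.11 for Igfbp3.

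With plain library totals 30 of the 32 group means moved by less than 1 SD, and those of Igf1r (25.4 CPM) and Igf2r (114 CPM) in injured placebo libraries moved by more. The lowest level of a member, 6.82 CPM, lay above the 0.159 CPM that 3 counts give, so counting depth did not limit detection of the members.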
